A study of Homo sapiens with 2 samples.

Results

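The BCL2 family sets whether the mitochondrial outer membrane stays closed or is opened in apoptosis, and 10 of its genes are described here in HSC-3 cells under ferroptotic stress. They are the anti-apoptotic genes BCL2, BCL2L1, BCL2L2, BCL2A1 and MCL1, the effector BAK1, and the BH3-only genes BID, BAD, BIK and BCL2L11. They were picked by symbol from the 60616 genes of the deposited tables. BAX, BBC3 and PMAIP1, known as p53 targets, were set apart. The group was chosen with its FPKM values in these 2 libraries known, in particular the opposite directions of BCL2L1 and BCL2A1, so the values below are a description and carry no test.

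HSC-3 is an established cell line of human tongue squamous carcinoma, one of the head and neck squamous cell carcinomas (HNSCC). One culture received 1 µM FIN56, an inducer of the lipid peroxidation death called ferroptosis, for 48 h, and the other received the vehicle, 0.1% DMSO, for a time that the labels do not give. Both were grown in DMEM with 5% serum, and poly(A) RNA was sequenced with a stranded kit. Each condition was 1 library of 1 line, so the differences below could not be checked against replicates and are given without p-values. In such bulk RNA, fewer cells that express a gene and less RNA of it per cell cannot be told apart.

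The libraries held 70184517 (DMSO) and 73062209 (FIN56) expected counts, which are reads assigned to genes by estimate where a read fits several. The ratio of a gene is its FPKM (fragments per kilobase of transcript, scaled for library size) in the FIN56 library over that in the DMSO library, and levels are compared between genes in TPM (the gene's length-scaled share of all transcripts). Each count ratio, scaled by library totals, is followed by its exact 95% interval (Clopper-Pearson), which covers counting error only. All 8 squamous epithelial markers were detected, with TPM of at least 65.8 in the DMSO and 67.0 in the FIN56 library. The blood cell markers PTPRC and CD3E were at 0 in both, LYZ was at 0.04 and 0 TPM, and ITGAM was at 0.42 and 0.20 TPM. The 3 fibroblast markers summed to 6.89 and 3.82 TPM, most of it COL1A1, and the 2 endothelial markers summed to 0.11 and 0.09 TPM.

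In healthy cells the anti-apoptotic proteins hold the effectors BAK1 and BAX in check. BH3-only proteins are stress sensors that occupy the groove of the anti-apoptotic proteins or engage the effectors directly. Effectors that are set free form pores in the outer membrane, cytochrome c escapes, and caspases are activated. Squamous carcinoma cells are known to rely mostly on MCL1 and BCL-XL, the long product of BCL2L1. Ferroptosis is a separate form of death that does not need these pores.

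The feature that joins the family is the BH3 segment, in which a leucine and an aspartate typically sit 5 residues apart. The coding sequences around this core are shown because the segment is what the members bind each other with. They were read from the reference transcript of each gene (GENCODE 44, GRCh38), with the codons of that leucine and aspartate in capitals and 2 codons on either side of the core. The pattern searched was a leucine, any 3 residues, a glycine or serine, and an aspartate, and 8 of the 10 members had a match.
BCL2 (chr18:63318355-63318384, minus strand, exon 2): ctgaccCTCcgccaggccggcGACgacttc
BCL2L1 (chr20:31721928-31721957, minus strand, exon 2): caagcgCTGagggaggcaggcGACgagttt
MCL1 (chr1:150578871-150578900, minus strand, exon 1): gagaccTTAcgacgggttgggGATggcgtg
BAK1 (chr6:33575393-33575422, minus strand, exon 4): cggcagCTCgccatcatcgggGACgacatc
BID (chr22:17739421-17739450, minus strand, exon 4): aggcacCTCgcccaggtcgggGACagcatg
BAD (chr11:64271628-64271657, minus strand, exon 3): cgcgagCTCcggaggatgagtGACgagttt
BIK (chr22:43127710-43127739, plus strand, exon 3): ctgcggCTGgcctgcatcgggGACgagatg
BCL2L11 (chr2:111150097-111150126, plus strand, exon 3): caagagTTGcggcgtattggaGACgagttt
BID had a second match at residues 25 to 30 of its protein, before the segment shown at residues 90 to 95. No match was found in BCL2L2 and BCL2A1, which says only that the pattern searched is not in their coding sequence. Over the 18 bases of the core in the genes with a single match, BAK1 and BIK shared 15 and BCL2 and BCL2L1 shared 13.

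The members were expressed over a wide range. In the DMSO library MCL1 was highest at 152 TPM, followed by BAD at 111, BID at 76.8, BCL2L1 at 60.9, BAK1 at 51.8, BCL2L2 at 41.4 and BIK at 20.6. BCL2L11 at 5.56, BCL2A1 at 3.34 and BCL2 at 0.14 TPM stood well below these. In the FIN56 library the order was the same but for BCL2L1, which at 85.1 TPM passed BID at 71.2. With 1 library a condition there is no spread to say which neighbours in this order differ. BCL2, the founding member of the family, was thus barely expressed in HSC-3 cells, with 41 counts under DMSO and 72 under FIN56.

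**Figure D1:**
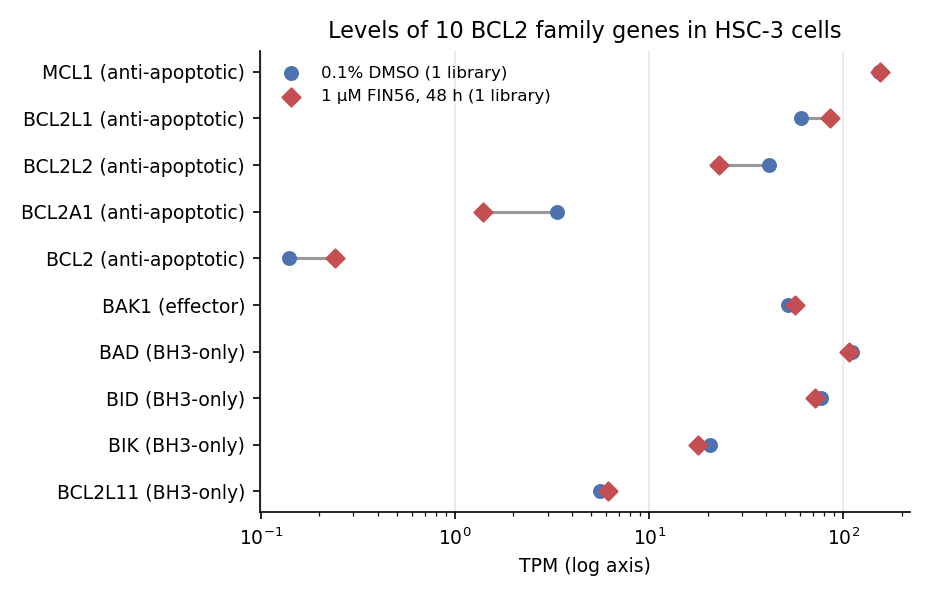
TPM of the 10 members on a log axis, 1 point for the DMSO and 1 for the FIN56 library, with the role of each gene in brackets. MCL1 is highest in both libraries (152 and 155 TPM), BCL2 is lowest (0.14 and 0.24 TPM), and the points lie furthest apart for BCL2A1 and BCL2L2.

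The study took an FPKM ratio of 1.5 or more as its criterion for raised genes, and the same fold was applied here to lower genes, with no minimum level. By this, 1 of the 10 members was higher in the FIN56 library (BCL2) and 2 were lower (BCL2L2 and BCL2A1). With a minimum of 1 FPKM in both libraries, which BCL2 and BCL2A1 do not meet, 0 were higher and 1 was lower. Of the 24454 genes whose FPKM was above 0 under both conditions, 14.7% were at 1.5 or more and 17.3% at 1/1.5 or less. A minimum of 10 expected counts in each library, which all 10 members met, left 17372 genes, and there these shares were 7.62% and 11.1%. Nearest to the upper threshold were BCL2, past it at a ratio of 1.78, and BCL2L1, short of it at 1.37. Nearest to the lower one were BCL2L2, past it at 0.540, and BIK, short of it at 0.851. The median log2 ratio of the members was -0.043, beside 0.01 for genes with at least 10 counts.

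BCL2, BCL2L2 and BCL2A1, the members past the criterion, are anti-apoptotic genes, and only BCL2L2 met the minimum of 1 FPKM in both libraries. The shares of all genes past the criterion are given above. The anti-apoptotic genes did not move as a group. BCL2L1 (chr20:31664452-31723989, minus strand), which encodes BCL-XL, had 7071 expected counts and an FPKM of 40.7 under DMSO, against 10089 and 55.7 under FIN56. Its FPKM ratio was 1.37, with a count ratio of 1.37 (95% counting interval 1.33 to 1.41). BCL2L1 was thus higher in the FIN56 library but below the criterion.

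BCL2A1 (chr15:79960892-79971196, minus strand), which encodes the short-lived survival protein BFL-1 and is a known NF-κB target, went the other way. It had 108 counts and an FPKM of 2.24 under DMSO, against 46 counts and 0.92 under FIN56. The FPKM ratio was 0.411 and the count ratio 0.409 (0.283 to 0.583). Of the 17372 genes, which cover all levels, 1.68% had an FPKM ratio as low. This share is no measure of rarity, since the direction of BCL2A1 was known when it was chosen and low-level ratios spread widely. The interval of BCL2A1 is wide because few reads stand behind it.

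BCL2L2, which encodes BCL-W, was also lower, at a level where counting error is small. It had 5969 counts and an FPKM of 27.7 under DMSO, against 3205 counts and 14.9 under FIN56, a ratio of 0.540. The count ratio was 0.516 (0.494 to 0.539), and 4.77% of genes had an FPKM ratio as low.

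MCL1 (chr1:150560895-150579738, minus strand), whose protein turns over quickly, was nearly level. It had 27611 and 28010 counts, and FPKM values of 102 and 101, in the DMSO and FIN56 libraries. The FPKM ratio was 0.995, but the direction depended on scaling, since the TPM ratio was 1.02 and the count ratio 0.974 (0.958 to 0.991). BCL2 had an FPKM of 0.09 and 0.16, a ratio of 1.78 that rounding to 2 decimals alone places anywhere between 1.63 and 1.94. Its count ratio was 1.69 (1.13 to 2.54), from 41 and 72 counts. BCL2 was thus past the criterion at a level where each library held few reads.

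None of the effector and BH3-only genes among the members was past the criterion, and the share of all genes past it is given above. BAK1, which forms the pore, had FPKM values of 34.7 under DMSO and 37.1 under FIN56, a ratio of 1.07. BID, which caspase-8 cleaves to an active form, had 51.3 and 46.6, a ratio of 0.908. BAD, which is held inactive by survival kinases and binds BCL-XL when freed, had 74.1 and 70.1, a ratio of 0.947. BIK, a BH3-only protein of the endoplasmic reticulum, had 13.7 and 11.7, a ratio of 0.851. BCL2L11, which encodes the potent activator BIM, had 3.72 and 4.01, a ratio of 1.08. Thus 3 of the 4 BH3-only genes were lower in the FIN56 library and 1 was higher, each by less than the criterion. Of the 24454 genes with FPKM above 0 in both libraries, 11299 had a ratio below 1 and 11770 above 1.

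The count interval lay above 1 for 4 members (BCL2, BCL2L1, BAK1 and BCL2L11) and below 1 for 6. At this depth it did so for 31.3% of the 17372 genes above 1 and 31.0% below 1, so an interval apart from 1 is common in these libraries.

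**Figure D2:**
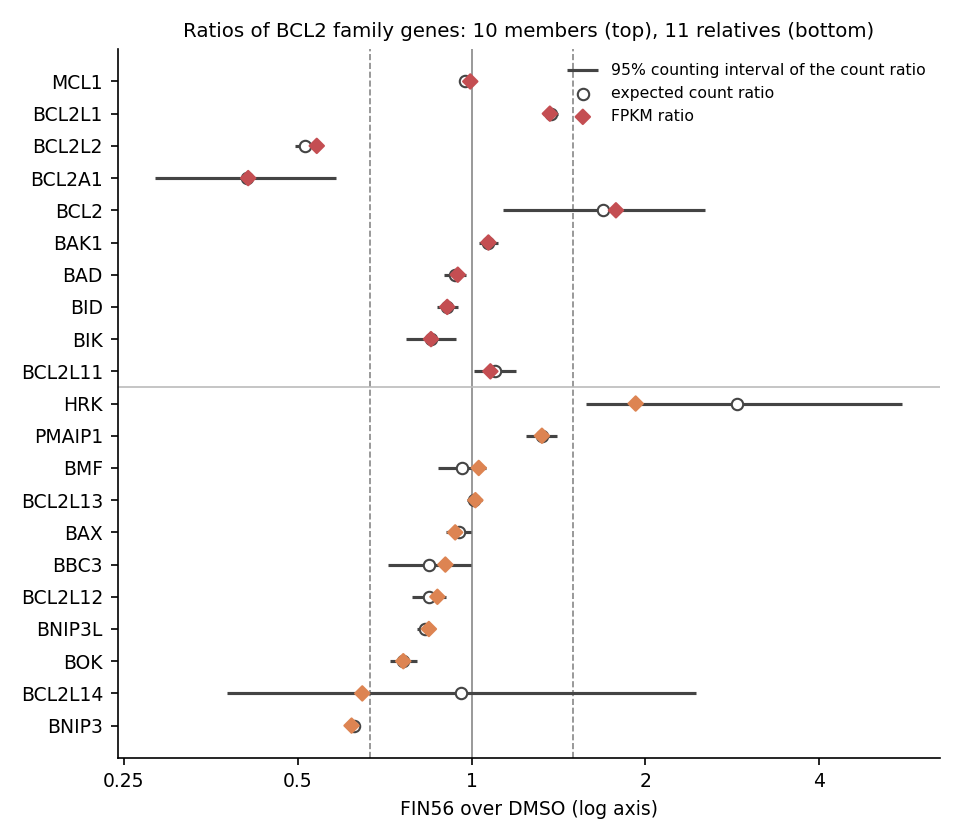
Ratios of FIN56 over DMSO on a log axis, with the FPKM ratio and the count ratio of each gene, bars for the 95% counting interval of the count ratio, and lines at 1 and at the criterion of 1.5 times either way. Among the 10 members at the top, BCL2 lies past the upper line and BCL2L2 and BCL2A1 past the lower one. The 11 relatives with at least 10 counts in both libraries lie at the bottom.

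**Figure D3:**
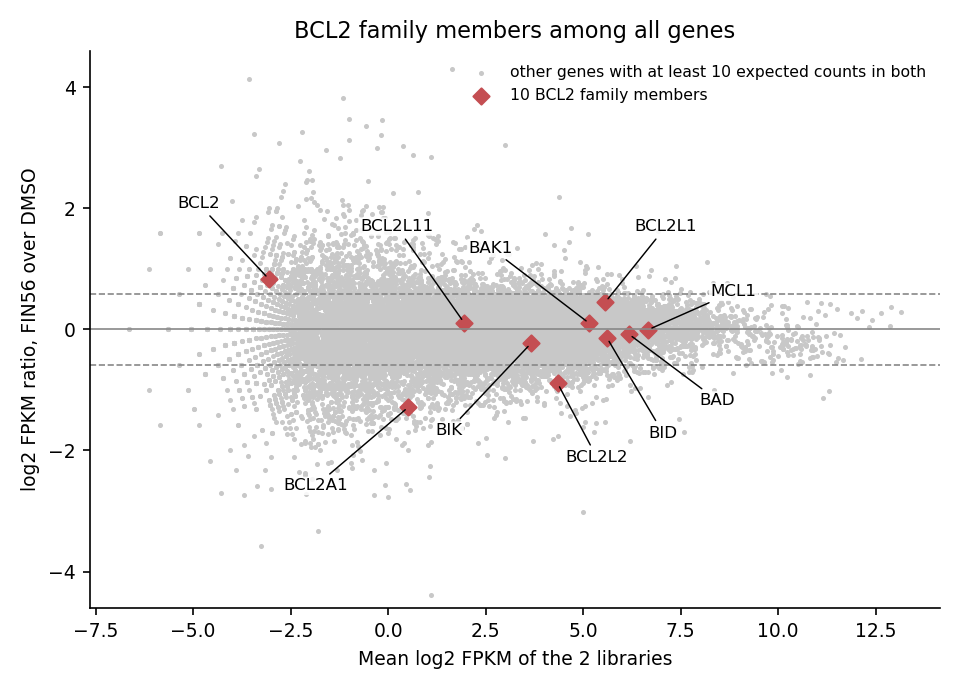
The log2 FPKM ratio of FIN56 over DMSO against the mean log2 FPKM of the 2 libraries, for the 17372 genes that had 10 or more expected counts in each library (grey) and the 10 members (red), with dashed lines at the criterion. BCL2 and BCL2A1 lie on the left, where the ratios of all genes spread widely, and BCL2L2 lies at a level where the spread is narrower.

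Because the ratio between 2 genes within a library does not depend on the scaling between libraries, the members were also set against each other. BCL2L1 transcripts were 1.47 times those of BCL2L2 in TPM under DMSO and 3.73 times under FIN56. This is a change of 2.53 times, and of 2.66 times in expected counts (2.52 to 2.80, counting error). Against BCL2A1, BCL2L1 went from 18.2 to 60.8 times, a change of 3.35 times in expected counts (2.37 to 4.74). Against MCL1, it went from 0.400 to 0.549. The opposite directions of BCL2L1 and BCL2A1 were known when the genes were chosen, so their pair restates that choice. Against BCL2 the order was the other way, since the TPM ratio between the libraries was 1.71 for BCL2 and 1.40 for BCL2L1. BCL2 had only 41 and 72 counts, and its count interval (1.13 to 2.54) includes the BCL2L1 count ratio of 1.37. The order of these 2 genes is therefore not settled even by counting error.

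The summed TPM of the 10 members hardly differed, and the other BCL2 family genes are not in this sum. The 10 members summed to 523.7 TPM in the DMSO library and 523.6 TPM in the FIN56 library. Anti-apoptotic genes held 49.3% and 50.5% of this sum, BAK1 9.90% and 10.8%, and BH3-only genes 40.8% and 38.7%. Within the anti-apoptotic share, BCL2L1 went from 11.6% to 16.3% of the sum of all 10 members and BCL2L2 from 7.90% to 4.36%, while MCL1 held 29.1% and 29.6%. In expected counts, which favour long transcripts, the anti-apoptotic share was 72.3% and 72.2%.

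**Figure D4:**
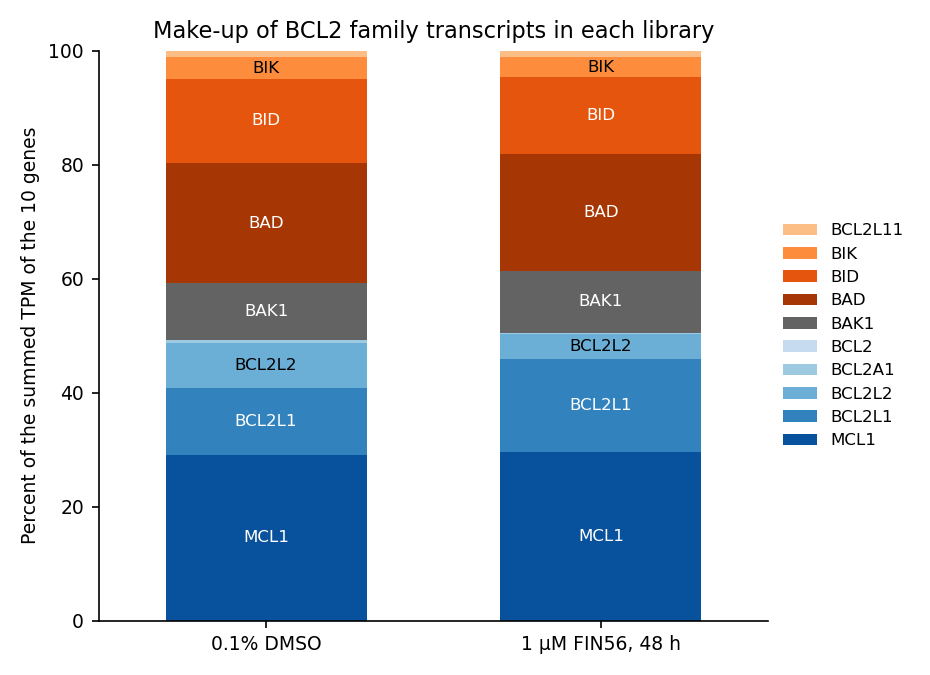
Stacked bars of the percent of the members' summed TPM held by each of the 10 genes, for the DMSO and the FIN56 library. The BCL2L1 segment is larger under FIN56 (16.3% against 11.6%), the BCL2L2 segment is smaller (4.36% against 7.90%), and the MCL1 segment is alike.

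The BCL2L2 value rests on a locus where reads are divided between genes. BCL2L2 lies at chr14:23298790-23311751 on the plus strand, and an annotated readthrough gene, BCL2L2-PABPN1, joins its first exons to those of the next gene, PABPN1, which encodes a nuclear poly(A)-binding protein. Of the 4840 exon bases of BCL2L2, 815 (16.8%) are shared with the readthrough gene. PABPN1 shares 1447 of its 3686 bases (39.3%) with it. BCL2L2-PABPN1 had 1949 counts under DMSO and 957 under FIN56, an FPKM ratio of 0.512. PABPN1 had 16786 and 13100, a ratio of 0.759. The summed counts of BCL2L2 and BCL2L2-PABPN1 had a ratio of 0.505 (0.486 to 0.524). Over all 3 genes, which share reads through BCL2L2-PABPN1, the ratio of the summed counts was 0.671 (0.658 to 0.684), which is not past the threshold, and PABPN1 holds most of those counts. The part of read division in the BCL2L2 value was not tested. BAK1 has 2 pseudogenes that could share its reads, but BAK1P1 was listed at 12.8 and 17.2 counts and BAK1P2 at 0 in both libraries.

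**Figure D5:**
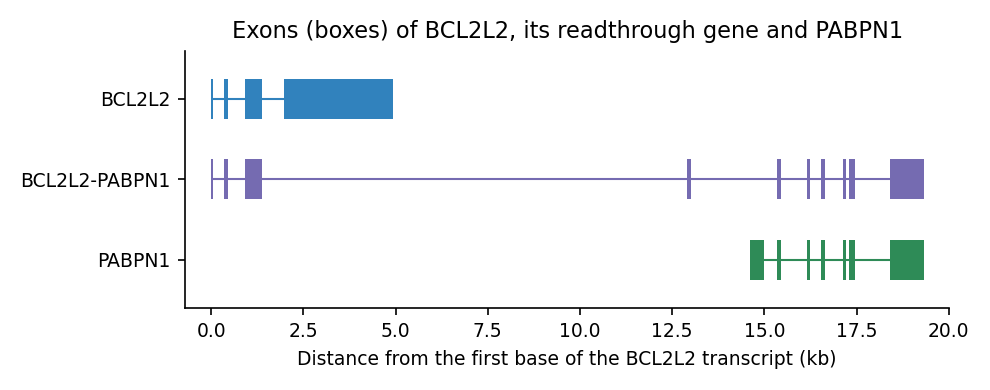
Exons (boxes) of 1 annotated transcript each of BCL2L2, BCL2L2-PABPN1 and PABPN1, by distance in kb from the first base of the BCL2L2 transcript. The readthrough gene has the first 3 exons of BCL2L2 but not its long last exon, and ends with exons of PABPN1.

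Several members overlap a gene on the other strand, and the sources used here do not state whether strand was used in counting. ABALON, a long non-coding RNA antisense to BCL2L1, had 27.0 and 59.1 counts against the 7071 and 10089 of BCL2L1. ADAMTSL4, opposite MCL1, had 804 and 487 counts, and ADAMTSL4-AS1, on the same strand as MCL1, had 8.70 and 69.9. GPR137, opposite BAD, had 1633 and 1232 counts against the 4212 and 4110 of BAD, and PPP1R3E, opposite BCL2L2, had 437 and 356. MIR4435-2HG, opposite BCL2L11, had 3307 and 3448, which is more than the 1074 and 1228 of BCL2L11. These are overlaps of whole gene spans, and whether exons overlap was not examined. The neighbours' counts therefore do not measure how uncertain the counts of these members are. Not every overlapping gene was analysed here.

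FPKM also depends on the effective length estimated for each gene in each library. For BCL2A1, BAK1, BIK and BCL2L1 the length implied by count and FPKM was between 92.7 and 100.4 bases below that of the reference transcript in both libraries. For BID it was 920 bases below in both, and for BCL2L11 986 bases below under DMSO and 905 under FIN56. The implied length of MCL1 was 3860 and 3780 bases and that of BCL2L2 was 3075 and 2938. These shifts are why FPKM and count ratios differ slightly for MCL1 and BCL2L2.

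The sequence upstream of BCL2A1 and of BCL2L1 is shown because these genes went in opposite directions. The windows are the 250 bases before a transcription start, from RefSeq on GRCh38.p14, written 5′ to 3′ on the strand of the gene. Capitals mark matches to the motifs searched.
BCL2A1 (chr15:79971197-79971446, minus strand): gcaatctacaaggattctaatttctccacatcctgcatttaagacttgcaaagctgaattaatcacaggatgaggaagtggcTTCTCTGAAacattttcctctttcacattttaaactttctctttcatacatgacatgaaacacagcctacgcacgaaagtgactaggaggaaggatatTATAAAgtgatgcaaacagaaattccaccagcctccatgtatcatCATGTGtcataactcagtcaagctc
BCL2L1 (chr20:31723964-31724213, minus strand): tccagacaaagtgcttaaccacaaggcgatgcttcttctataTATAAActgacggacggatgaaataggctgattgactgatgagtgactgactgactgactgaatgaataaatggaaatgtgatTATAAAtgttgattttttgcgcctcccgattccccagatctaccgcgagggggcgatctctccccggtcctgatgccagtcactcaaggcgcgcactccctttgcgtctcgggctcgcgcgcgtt
Windows were found for 7 of the 10 members, 13 in all, and not for BCL2L2, MCL1 and BIK. In both strands of each, 8 motifs were searched. The BCL2A1 window held CATGTG starting 25 bases before the start site, TATAAA at 70 and TTCNNNGAA, a STAT motif, at 168, none of which overlap. These letters occur in 9.42%, 10.7% and 6.57% of all 35116 windows. The BCL2L1 window shown held TATAAA at 208 and 125 bases before the start, and a second BCL2L1 window held none of the motifs. BID, which had several windows, held CACGTG at the same site in overlapping windows, and CATGTG in another window. CACGTG is in 6.35% of all windows, a share per window and not per gene. BCL2L11 held the FOXO motif TGTTTAC, which is in 2.98% of all windows. The NF-κB motif was found in 9.96% of all windows and in none of the members', and neither were the AP-1 motifs TGACTCA and TGAGTCA (4.20%) or the ETS motif CCGGAAGT (3.42%). The GC content of the BCL2A1 window was 38.8%, that of the BCL2L1 windows 50.0% and 60.4%, and the median of all windows 58.0%. A match is a description of letters only, and the lack of one says nothing of the factor.

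The relatives of the 10 members were read alongside them. Of 13 other BCL2 family genes, 2 were at 1.5 or more and 3 at 1/1.5 or less, of which 1 and 2 had at least 10 counts in both libraries. BAX, the other main effector, had TPM of 84.9 and 81.3 with a ratio of 0.937, so that BAX and BAK1 together came to 137 TPM under DMSO and 138 under FIN56. Of the BH3-only p53 targets, PMAIP1 (NOXA) was at 1.32 and BBC3 (PUMA) at 0.901.

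BNIP3, a mitophagy receptor with a BH3-like segment, was the relative past the criterion with the most reads. It had 15449 counts under DMSO and 10075 under FIN56, a ratio of 0.620 and a count ratio of 0.626 (0.611 to 0.642). BNIP3L, its close relative, was at 0.844. HRK, a BH3-only gene best known from neurons, had 15 and 45 counts, a ratio of 1.92 and a count ratio of 2.88 (1.58 to 5.57).

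The other relatives were BOK at 0.762, BMF at 1.03, BCL2L12 at 0.873 and BCL2L13 at 1.02. BCL2L15 had 6 and 37 counts and a ratio of 2.11, BCL2L10 had 4 and 1 counts with a ratio of 0.400, and BCL2L14 had 11 counts in each library with an FPKM ratio of 0.647. These last 3 genes are thinly read, and for BCL2L14 the FPKM ratio comes almost wholly from the effective length. BCL2L10 and BCL2L14 cannot be placed, since their count intervals include 1. That of BCL2L15 lay above 1 (2.48 to 17.2, counting error only), but it had fewer than 10 counts under DMSO.

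Downstream of the family, 21 genes of cytochrome c release and the caspases were looked at, and 1 was past the criterion in each direction. Over the 17372 genes with at least 10 counts in both libraries, the shares were 7.62% upward and 11.1% downward. CASP2, an initiator caspase, had TPM of 11.7 and 20.2, a ratio of 1.69 and a count ratio of 1.69 (1.60 to 1.78). CASP6, an executioner caspase, had 22.1 and 12.8, a ratio of 0.566 and a count ratio of 0.617 (0.559 to 0.680). Of the 7 caspases 5 had a ratio above 1, beside 11770 of the 24454 genes with FPKM above 0 in both libraries. CYCS, which encodes cytochrome c, was at 1.08, the adaptor FADD at 1.16 and the inhibitor of apoptosis BIRC5 at 0.764. The median log2 ratio of the 21 genes was 0.11.

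Among 16 genes whose products bind the members or control their stability, 0 were past the criterion in either direction, and ratios ran from 0.758 to 1.42. With 1 library per condition no test was made on this count, and the share of all genes past the criterion is given above. TPT1, a partner of MCL1 and BCL-XL, was at 0.758 with 4287 TPM under DMSO and 3321 under FIN56. DYNLL1, the dynein light chain that binds BIM, was at 0.885, and TMBIM6, the Bax inhibitor 1 gene, at 1.37, though its count ratio was 1.17 (1.16 to 1.19).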

How the data were processed

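Poly(A) RNA of 1 DMSO and 1 FIN56 library was measured. Per the labels, FastQC 0.11.7, STAR 2.6.1a, RSEM 1.3.1, DESeq2 1.26.0 and the build GRCh38 were used. The study's methods describe these steps for tumor libraries, and HSC-3 is assumed to have been treated alike. The authors' expected counts are RSEM estimates without normalization. The authors' FPKM and TPM values correct for library size and effective length. The deposited rlog values are on a log2 scale.

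Here the FPKM ratio was computed for genes above 0 in both libraries. Count ratios used rounded expected counts with 95% Clopper-Pearson intervals, and intervals of a ratio between 2 genes were log-normal. Since reads carried no molecular identifiers, both cover counting error only. The total counts were 70184517 and 73062209, which set the precision given in the text. The count ratios and their intervals were tested on simulated counts that held counting error only. The other steps were not simulated.

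The genes named are the members, the other BCL2 family genes, read-sharing partners, and from each other list the genes past 1.5 times with at least 10 counts in both libraries and the 3 with the highest DMSO TPM. Overlapping genes were added after the values were seen. The members and lists were chosen with earlier results of these data known. Alternatives were TPM, rlog, edgeR 4.0.16 TMM, DESeq2 1.42.0 size factors, library totals, pseudocounts of 0.1 and 1 FPKM, minimum counts and FPKM, and a threshold of 2. Positions came from GENCODE 44, in which 99.7% of identifiers were found. R 4.3.3 and Python 3.11.15 were used. The value of 1 marker gene is not reported here.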

Additional observations from a re-analysis of the deposited data

How the results depend on the processing

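No paired analysis was possible because the DMSO and the FIN56 condition hold a single library each, and no replicate could be left out. BCL2L1 and BCL2 stayed above 1, and BCL2L2 and BCL2A1 below 1, in all 8 settings of scaling, unit or pseudocount, whereas MCL1 was above 1 with TPM alone. On the shrunken rlog scale the ratio of BCL2A1 was 0.917 and that of BCL2L2 0.769, and with a pseudocount of 1 FPKM BCL2A1 was at 0.593 and BCL2 at 1.06. The number of members at 1.5 or more, 1 in the main measure, was 0 with rlog, with a pseudocount of 0.1 or 1 FPKM, with a minimum of 1 FPKM in both libraries and with a threshold of 2. The number at 1/1.5 or less, 2 in the main measure, was 0 with rlog, 1 with the FPKM minimum and 1 with the threshold of 2. Over all genes, 3583 were at 1.5 or more and 4240 at 1/1.5 or less. These became 7 and 16 with rlog, 1863 and 2419 with a pseudocount of 0.1, 403 and 708 with a pseudocount of 1, 1323 and 1936 with at least 10 counts, 489 and 855 with the FPKM minimum, and 2088 and 2384 with the threshold of 2. The minima and the stricter threshold leave fewer genes by construction. A pseudocount likewise draws every ratio toward 1, and rlog shrinks differences between libraries.

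The median log2 ratio of the other BCL2 family genes, -0.15, was -0.0078 with rlog and -0.038 with DESeq2 size factors. That of the binding and stability genes, -0.011, turned to 0.020 with TPM and was -0.071 with TMM and -0.069 with library totals. By expected counts in place of TPM, the anti-apoptotic share was 72.3% under DMSO and 72.2% under FIN56, the BH3-only share 18.8% and 18.0%, and the share of BAK1 8.92% and 9.78%, since counts are not divided by length. Depth limits BCL2, BCL2A1, HRK and the 3 thinly read relatives, and single libraries limit every ratio.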

Other observations

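Transcription factors known to act on members of the family were read as a further list. Of 12, 0 were at 1.5 or more and 0 at 1/1.5 or less by FPKM, with ratios from 0.717 to 1.48 and a median log2 ratio of -0.092. In TPM the gene at 1.48 had a ratio of 1.52, past 1.5. Over the 17372 genes with at least 10 counts in both libraries, the shares by FPKM were 7.62% and 11.1%. The 3 most abundant of the 12 were RELA, an NF-κB subunit, with TPM of 104 under DMSO and 148 under FIN56 (ratio 1.39), STAT3 with 73.1 and 82.5 (ratio 1.11) and NFKB1 with 42.9 and 36.6 (ratio 0.836). With 1 library per condition these differences have no replicate check.

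For HRK and BCL2L15 the count ratio was well above the FPKM ratio. The count ratio of HRK was 2.88 and its implied effective length went from 1644 to 2464 bases, and the count ratio of BCL2L15 was 5.92 (2.48 to 17.2) with an implied length of 950 and 2665 bases. Over all genes the middle 95% of the ratio of implied lengths lay between 0.777 and 1.24.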
